A study of Homo sapiens with 9 samples.

Results

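The genes described here put a brake on mitogen-activated protein (MAP) kinase signalling. They were taken by name: 6 dual-specificity phosphatases (DUSP1, DUSP2, DUSP4, DUSP5, DUSP6 and DUSP10), the Sprouty genes SPRY1 and SPRY2, and the Sprouty-related genes SPRED1 and SPRED2. Of these 10, 9 were read in the count table of 26816 genes, SPRY2 was not analysed here, and 8 of the 15725 genes with enough reads to test were members, since DUSP4 fell below the filter. The cells were OCI-Ly1, an established human lymphoma line of germinal-centre B-cell type. All cells carried a pLKO1 shRNA vector and had been selected with puromycin. They carried a scrambled control shRNA (shSCR) or either of 2 shRNAs against LSD1, the histone demethylase encoded by KDM1A, called sh68 and sh72 after the count table. Each of the 3 groups had 3 libraries, which the submitters call biological triplicates; nothing in the labels says how the cultures were separated, so that the spread between libraries may be partly technical.

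MAP kinases are switched on by phosphorylation of a threonine and a nearby tyrosine, and dual-specificity phosphatases remove both phosphates. DUSP1, DUSP2, DUSP4 and DUSP5 are nuclear enzymes that many cells induce when the kinase ERK is active. DUSP6 acts on ERK in the cytoplasm, and DUSP10 prefers the stress kinases JNK and p38. Sprouty and SPRED proteins act further upstream, between growth factor receptors and RAF, and SPRED1 is known to bring the RAS inactivator neurofibromin to the membrane. Because ERK activity raises transcription of many of these genes, they form a negative feedback loop, and in B cells the loop sits downstream of the antigen receptor.

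The libraries held 29506767 to 35270849 counted reads. KDM1A fell to 20.2% of its control level with sh68 and to 17.2% with sh72, and all 6 LSD1 shRNA libraries lay below all 3 controls. All 10 B-cell markers examined were above 10 CPM (read counts relative to library size, which was scaled by TMM, the trimmed mean of M values) in every library. Their summed level was 5624 to 5823 CPM in shSCR, 5990 to 6145 CPM in sh68 and 3919 to 4126 CPM in sh72. Of the 10 markers, 9 passed as lower and 1 as higher with sh72, where 26.3% of all genes were lower and 24.7% higher. With sh68, 2 passed as lower and 5 as higher, where 28.1% of all genes were lower and 27.4% higher. The part of the markers in the results was not tested. Of 11 markers of T cells, myeloid cells, fibroblasts, red cells and epithelium, 9 were under 1 CPM in every library, and their summed level was 16.01 to 18.83, 9.427 to 11.33 and 18.27 to 19.74 CPM. Most of that sum was EPCAM, at 7.40 to 18.1 CPM, COL1A2 was at 0 in 8 of 9 libraries, and COL1A1 was at 0.278 to 0.450 CPM in controls and 1.11 to 2.65 CPM in the LSD1 shRNA libraries; their part in the results was not tested. Libraries of a group differed by more than counting noise, with 2.57 to 6.97 units of chi-square per gene between any pair. In bulk RNA of this kind, a change in the number of expressing cells and a change in RNA per cell cannot be told apart.

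Promoter sequences of 8 of the 10 listed genes were found in the RefSeq promoter table (GRCh38.p14); DUSP4 and DUSP5 were the others. Below are the 250 bases upstream of the annotated start, 5′ to 3′ on the gene's own strand. SPRY1 is shown because it rose with sh68 and had the window poorest in G and C. DUSP1 and DUSP2 are shown because they were the members with a motif marked in capitals.
SPRY1 (chr4:123396545-123396794, + strand): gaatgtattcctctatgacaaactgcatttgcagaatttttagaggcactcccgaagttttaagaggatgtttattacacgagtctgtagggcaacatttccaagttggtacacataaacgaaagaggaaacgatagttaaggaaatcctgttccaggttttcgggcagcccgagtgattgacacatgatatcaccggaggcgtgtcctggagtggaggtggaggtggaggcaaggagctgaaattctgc
DUSP1 (chr5:172771196-172771445, - strand): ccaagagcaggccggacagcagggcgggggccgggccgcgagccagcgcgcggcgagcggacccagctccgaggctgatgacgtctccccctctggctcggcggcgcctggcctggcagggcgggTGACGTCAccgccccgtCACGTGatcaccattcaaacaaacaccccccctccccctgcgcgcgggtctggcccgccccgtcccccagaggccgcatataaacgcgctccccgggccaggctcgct
DUSP2 (chr2:96145441-96145690, - strand): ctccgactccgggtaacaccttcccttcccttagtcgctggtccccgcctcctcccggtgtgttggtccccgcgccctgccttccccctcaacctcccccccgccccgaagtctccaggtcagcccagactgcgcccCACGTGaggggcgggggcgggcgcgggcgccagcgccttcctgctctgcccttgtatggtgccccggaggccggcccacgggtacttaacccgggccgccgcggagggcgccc

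The capitals mark matches, on either strand, to the cyclic AMP response element TGACGTCA and the E-box CACGTG; the AP-1 site TGANTCA, the ETS site CCGGAAGT and the CArG box, a binding site of serum response factor, were also searched. DUSP1 held the cyclic AMP response element from 125 to 118 bases before its start and an E-box from 108 to 103 bases before it. DUSP2 held an E-box from 113 to 108 bases before its start. None of these 5 motifs was found in the windows of the 6 other listed genes. The shorter TGACG, which lies within TGACGTCA, was searched as well and matched 4 times in the DUSP1 window and 1 time in that of SPRY2, and 21.7% of all promoters held it. The DUSP6 window before the RefSeq start falls within the first exon that GENCODE 29 gives the gene, so it is upstream of the start in RefSeq alone and is not printed. The SPRED1 window likewise lies within the gene as GENCODE 29 gives it, and the windows of DUSP10 and SPRED2 overlap their genes in part, so the letters upstream of the GENCODE starts were not fully searched. Of 27305 promoters of the same length, 1.77% held TGACGTCA, 6.49% the E-box, 6.6% the AP-1 site, 3.64% the ETS site and 1.14% the CArG box. The DUSP2 window overlaps an exon of AC012307.1 in GENCODE 29. The SPRY1 window was the poorest of the 8 in G and C, at 45.6%, against a median of 58.0% for all promoters, and held 8 CpG pairs against a median of 11. The DUSP6 window was at 57.2%, that of DUSP1 at 74.4% and that of DUSP2 at 74.0%. These matches describe letters and are not evidence of a bound factor.

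Levels in control cells were compared per kilobase (kb) of exon, since longer transcripts give more reads. SPRED2 was the most abundant of these genes at 24.4 ± 0.677 CPM per kb (mean ± SD, n = 3, as for all levels below). DUSP2, a phosphatase typical of lymphocytes, followed at 7.61 ± 0.694. SPRY1 at 3.51 ± 0.231 and DUSP10 at 3.40 ± 0.163 did not differ beyond their spread. Below them came DUSP5 at 2.59 ± 0.0883 and SPRED1 at 1.73 ± 0.0590. DUSP1 at 1.44 ± 0.0713 and DUSP6 at 1.40 ± 0.0427 were again within their spread of each other. Lengths were taken from GENCODE 29 and need not be those the submitters counted over. The DUSP6 length includes a stretch shared with AC024909.2, described below, where reads may not have been counted for DUSP6. Its level per kb and its place in this order are therefore less certain.

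**Figure D1:**
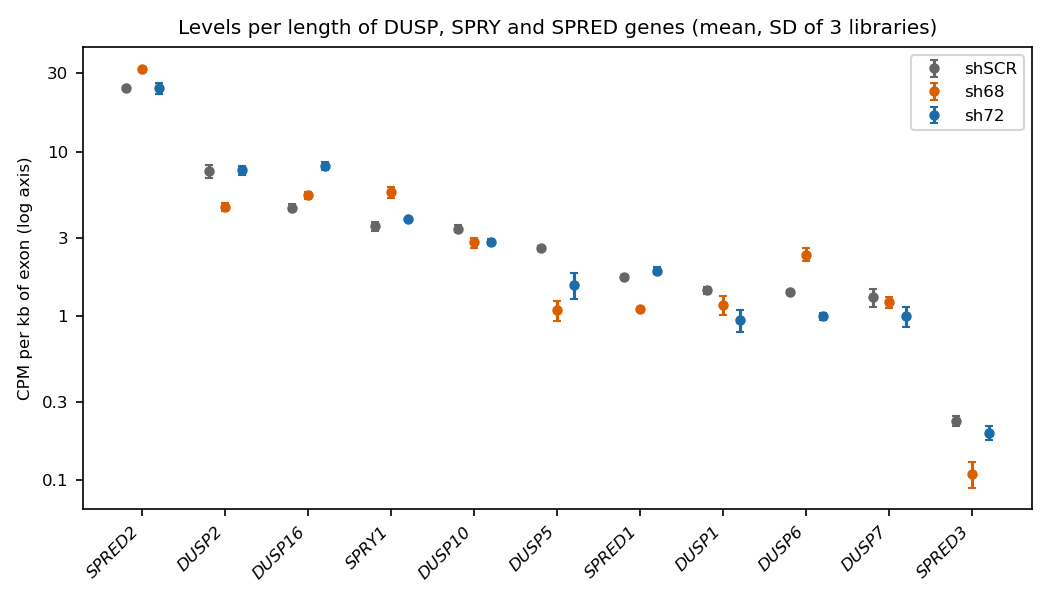
Level of each tested DUSP, SPRY and SPRED gene in CPM per kb of exon (log axis), ordered by the shSCR mean; points are means and bars SDs of 3 libraries. SPRED2 stands highest in all groups and SPRED3 lowest, and DUSP6 and SPRED1 change places between sh68 and the other groups. Further genes change places too, among them DUSP2, which is at 7.61 in shSCR and at 4.6 in sh68, below SPRY1 at 5.68 there.

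The comparison of LSD1 shRNA with control asks what these brakes do when LSD1 is depleted. The members did not move in one direction. On the mean of both shRNAs against shSCR, 5 of 8 tested members fell (DUSP1, DUSP2, DUSP5, DUSP10 and SPRED1), 2 rose (SPRY1 and SPRED2) and DUSP6 did not pass. Across all genes tested, 27.5% fell and 24.9% rose. The members' median log2 fold change was -0.27, beside -0.015 for all genes tested. When the sh68 and sh72 libraries were instead fitted together as 6 replicates, an alternative chosen after seeing the data, 0 members passed as higher and 2 as lower (DUSP5 and DUSP10). In that fit 1857 of the 15725 genes tested passed as higher and 1724 as lower. The edgeR quasi-likelihood test was used throughout, with Benjamini-Hochberg adjustment over all genes tested and a threshold of 0.05.

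The shRNAs were therefore examined one at a time; both comparisons use the same 3 control libraries. With sh68, DUSP6, SPRY1 and SPRED2 rose and DUSP2, DUSP5, DUSP10 and SPRED1 fell, 3 and 4 of 8, where 27.4% of all genes rose and 28.1% fell. With sh72, no tested member passed as higher, while DUSP1, DUSP5, DUSP6 and DUSP10 fell, 0 and 4 of 8, where 24.7% of all genes rose and 26.3% fell. With library size alone as the scaling, SPRY1 also passed as higher with sh72. DUSP5 and DUSP10 were called the same way by each shRNA, as were 25.6% of all genes. DUSP6 was called in opposite directions, as were 7.83% of all genes. The difference of sh72 minus sh68 passed for 6 of 8 members, 3 higher with sh72 (DUSP2, DUSP5 and SPRED1) and 3 lower (DUSP6, SPRY1 and SPRED2), where 27.2% of all genes were higher and 29.0% lower.

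**Figure D2:**
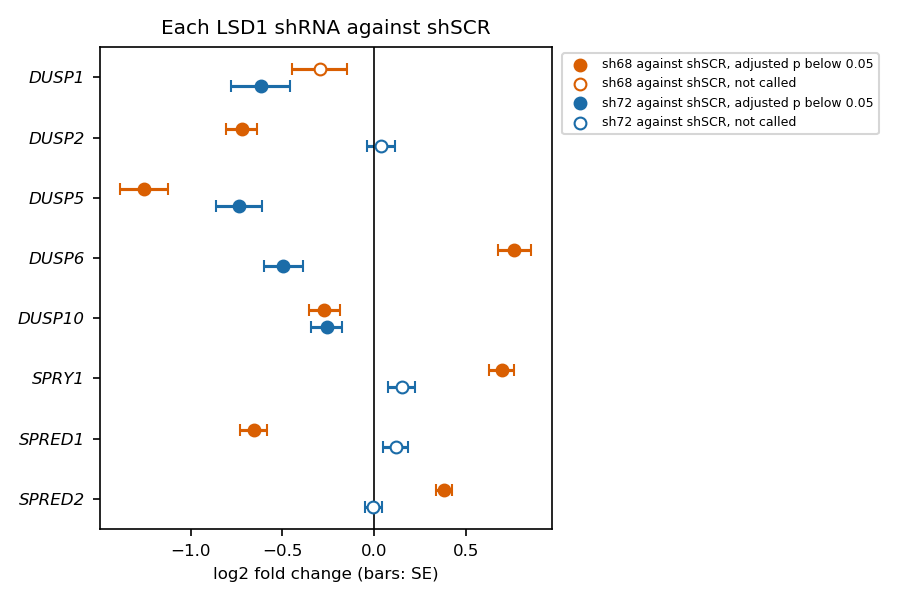
Log2 fold change of each tested member with sh68 (orange) and sh72 (blue) against shSCR; bars are SEs and filled points have an adjusted p below 0.05. DUSP5 and DUSP10 lie left of 0 with both shRNAs, and DUSP6 lies at 0.76 with sh68 and at -0.49 with sh72.

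Among the nuclear phosphatases, DUSP5 fell with each shRNA. DUSP5, which is specific for ERK, lies on chromosome 10 (GRCh38, 110497838 to 110511544). Its level was 6.62, 6.68 and 7.05 CPM in the shSCR libraries, 3.29, 2.76 and 2.5 CPM in sh68, and 4.90, 3.6 and 3.64 CPM in sh72. The 3 groups did not overlap, with sh68 lowest and shSCR highest. In sh68 cells the log2 fold change was -1.25 ± 0.13 (SE), a 2.39-fold lower level (adjusted p = 1.98e-08), and in sh72 cells -0.74 ± 0.13, a 1.67-fold lower level (adjusted p = 2.59e-05). The fall with sh72 was the smaller, by 0.52 ± 0.14 on the log2 scale (adjusted p = 0.00306).

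DUSP2 separated the shRNAs. The gene lies on chromosome 2 (GRCh38, 96143166 to 96145440), and its promoter is the one above with a single E-box. DUSP2 was at 15.8, 14.9 and 13.2 CPM in shSCR, 8.94, 9.37 and 8.35 CPM in sh68, and 16.1, 14.6 and 14.4 CPM in sh72. The sh68 libraries all lay below the others, and sh72 overlapped with shSCR. With sh68 it fell by 0.72 ± 0.083 on the log2 scale (adjusted p = 9.77e-08). With sh72 the log2 fold change was 0.038 ± 0.078, which did not pass (adjusted p = 0.714, 95% interval -0.124 to 0.200). Between the shRNAs the gap, taken as sh72 minus sh68, was 0.76 ± 0.083 (adjusted p = 3.29e-08).

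DUSP1, the founding member of the family and an early response gene in many cells, was read little. It lies on chromosome 5 (GRCh38, 172768090 to 172771195), with the cyclic AMP response element and E-box shown above. The shSCR libraries gave 97, 79 and 93 reads (3.0, 2.74 and 2.97 CPM). The sh68 libraries gave 80, 71 and 92 reads (2.46, 2.02 and 2.61 CPM). The sh72 libraries gave 58, 56 and 68 reads (1.69, 1.77 and 2.23 CPM). Both LSD1 shRNA groups lay below the controls and overlapped with each other. In sh72 cells the log2 fold change was -0.62 ± 0.16 (adjusted p = 0.00228) and -0.30 ± 0.15 with sh68, which did not pass (adjusted p = 0.101, 95% interval -0.611 to 0.0167). The difference between the shRNAs did not pass either (-0.32 ± 0.16, adjusted p = 0.0971, 95% interval -0.657 to 0.0144), but passed without sh68 replicate 2 (-0.42, adjusted p = 0.0463) or without sh72 replicate 3 (-0.44, adjusted p = 0.0428).

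DUSP4, the remaining nuclear member, was close to undetected. The shSCR libraries had 0, 1 and 0 reads of it, those of sh68 had 3, 1 and 2, and each sh72 library had 0. A count of 0 in all 3 sh72 libraries allows up to 0.0311 CPM over the group, by counting error alone. It was not tested, and no fold change is given.

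DUSP6, the cytoplasmic ERK phosphatase, moved in opposite directions. It lies on chromosome 12 (GRCh38, 89347232 to 89353271). DUSP6 was at 6.46, 6.30 and 6.70 CPM in shSCR, 11.4, 11.8 and 9.88 CPM in sh68, and 4.34, 4.74 and 4.76 CPM in sh72. All sh68 libraries lay above the controls and all sh72 libraries below them. It rose by 0.76 ± 0.091 on the log2 scale in sh68 cells (1.70-fold, adjusted p = 1.67e-07) and fell in sh72 cells, with -0.49 ± 0.10 (1.41-fold lower, adjusted p = 0.000330). The gap between the shRNAs, sh72 minus sh68, was -1.26 ± 0.096 (adjusted p = 7.83e-11), the widest of the 8 tested members. The mean of both shRNAs, 0.14 ± 0.085, therefore did not pass (adjusted p = 0.192). In GENCODE 29 up to 1632 bases of a DUSP6 exon overlap an exon of AC024909.2 on the other strand, and since the strand setting of the counting is not given in the sources used here, reads of that transcript cannot be told apart from those of DUSP6. None of the other members' exons overlap another gene's in that annotation.

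DUSP10, a phosphatase of JNK and p38, was lower by a like amount with each shRNA. It lies on chromosome 1 (GRCh38, 221701424 to 221742176). Its level was 9.90, 10.4 and 9.44 CPM in shSCR, 8.14, 7.66 and 8.80 CPM in sh68, and 8.28, 8.59 and 7.94 CPM in sh72. Both LSD1 shRNA groups lay below the controls and overlapped with each other. Its log2 fold change was -0.27 ± 0.085 in sh68 cells (adjusted p = 0.00870) and -0.26 ± 0.085 in sh72 cells (adjusted p = 0.0137), with a difference of 0.012 ± 0.086 (adjusted p = 0.916, 95% interval -0.166 to 0.191). Without shSCR replicate 2 neither call was kept (-0.23, adjusted p = 0.0511 for sh68, and -0.21, adjusted p = 0.0758 for sh72). The sh68 call was also lost without sh68 replicate 2 (-0.21, adjusted p = 0.0625) and the sh72 call without sh72 replicate 3 (-0.21, adjusted p = 0.0671).

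**Figure D3:**
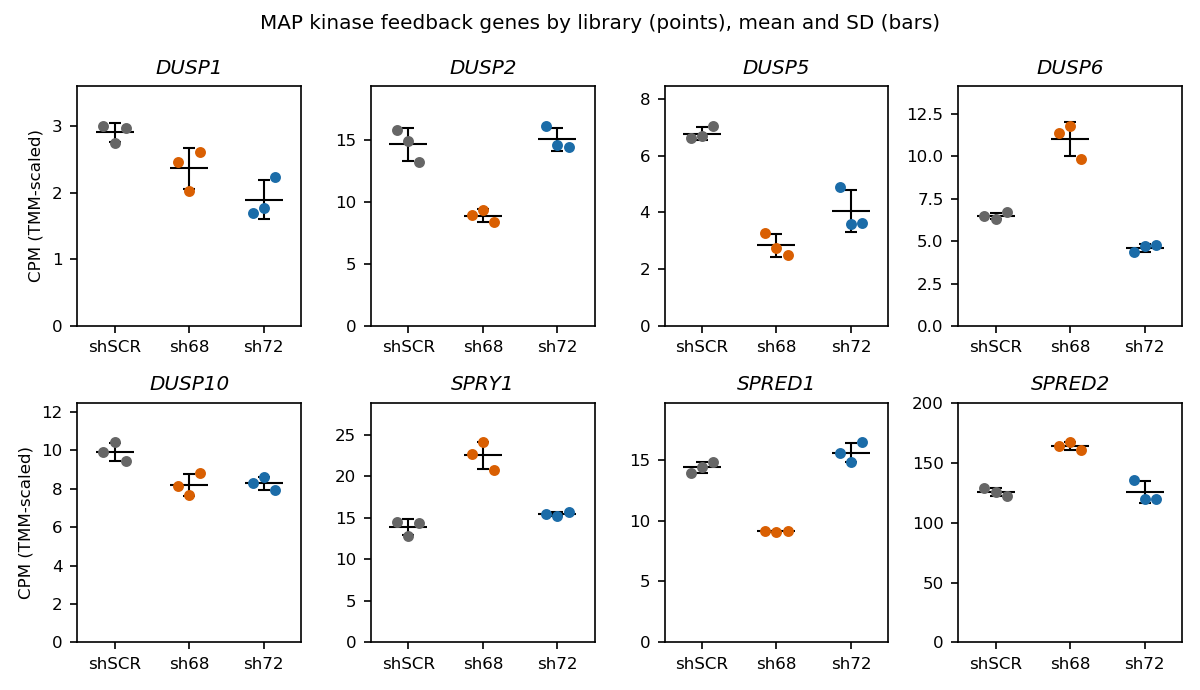
CPM of the 8 tested members in each library (points), with the mean and SD of 3 libraries (bars); each panel has its own axis from 0. SPRED1 and DUSP2 are low in sh68 alone, DUSP6 is high in sh68 and low in sh72, and DUSP5 is low in both.

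SPRY1, the Sprouty gene that could be tested, rose with sh68. It lies on chromosome 4 (GRCh38, 123396795 to 123403760), behind the G- and C-poor promoter printed above. SPRY1 was at 14.5, 12.8 and 14.4 CPM in shSCR, 22.7, 24.1 and 20.8 CPM in sh68, and 15.5, 15.2 and 15.7 CPM in sh72. The groups did not overlap, although sh72 exceeded the highest control by little. The rise in sh68 cells was 0.69 ± 0.070 on the log2 scale (1.62-fold, adjusted p = 1.02e-08). The value in sh72 cells, 0.15 ± 0.073, did not pass (adjusted p = 0.0912, 95% interval -0.000863 to 0.3). With library size alone as the scaling the value with sh72 was 0.19 and passed (adjusted p = 0.0368). Between the shRNAs, sh72 minus sh68 gave -0.55 ± 0.068 (adjusted p = 3.06e-07).

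The paired SPRED genes changed in opposite directions with sh68. SPRED1, on chromosome 15 (GRCh38, 38252326 to 38357249), was at 13.9, 14.4 and 14.8 CPM in shSCR, 9.15, 9.06 and 9.11 CPM in sh68, and 15.5, 14.8 and 16.4 CPM in sh72. The groups did not overlap: the sh68 libraries lay below all others, and the lowest sh72 library barely exceeded the highest control. SPRED2, on chromosome 2 (GRCh38, 65310851 to 65432637), was at 129, 126 and 122 CPM in shSCR, 164, 167 and 161 CPM in sh68, and 136, 120 and 120 CPM in sh72. Here the sh68 libraries lay above all others and sh72 overlapped with shSCR. With sh68 the log2 fold change was -0.66 ± 0.073 for SPRED1 (1.58-fold lower, adjusted p = 5.61e-08) and 0.38 ± 0.045 for SPRED2 (1.30-fold, adjusted p = 1.31e-07). With sh72 SPRED1 had 0.12 ± 0.069 (adjusted p = 0.163, 95% interval -0.025 to 0.259) and SPRED2 -0.0039 ± 0.045 (adjusted p = 0.952, 95% interval -0.0976 to 0.0898). The differences of sh72 minus sh68 were 0.77 ± 0.072 (adjusted p = 2.62e-09) and -0.39 ± 0.045 (adjusted p = 9.32e-08).

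The relatives of these genes were taken from lists. Of 4 further MAP kinase phosphatases, 2 could be tested. DUSP16, which acts on JNK and p38, was at 26.2 ± 1.37 CPM in controls, 31.1 ± 1.73 in sh68 cells and 46.9 ± 2.57 in sh72 cells and rose with each (log2 fold changes 0.25 ± 0.060 and 0.84 ± 0.058, adjusted p = 0.00111 and 2.48e-11), and the 3 groups did not overlap. DUSP10, which shares these targets, was lower with each shRNA. DUSP7, an ERK phosphatase, was at 7.37 ± 0.923, 6.89 ± 0.528 and 5.63 ± 0.763 CPM and was called lower with sh72 (-0.38 ± 0.11, adjusted p = 0.00697), a call lost without shSCR replicate 2 (adjusted p = 0.0638) or sh72 replicate 3 (adjusted p = 0.0584). Its call on the mean of both shRNAs (-0.24 ± 0.097, adjusted p = 0.0407) was lost under 9 of 18 alternatives. SPRED3 fell with sh68 from 1.35 ± 0.0949 to 0.642 ± 0.116 CPM (-1.07 ± 0.23, adjusted p = 0.000318) and was at 1.14 ± 0.111 CPM with sh72. SPRY3 and SPRY4 had at most 4 reads in a library and were not tested. Of 8 tested dual-specificity phosphatases without a MAP kinase binding domain, 2 rose and 3 fell on the mean of both shRNAs. On that mean 24.9% of all genes rose and 27.5% fell. DUSP3, which can act on ERK and JNK, was at 26.2 ± 1.40, 19.6 ± 1.30 and 12.1 ± 0.401 CPM in the control, sh68 and sh72 cells and fell with each. DUSP12 (-0.56 ± 0.056) and DUSP18 (-0.54 ± 0.10) fell by about as much with either shRNA, and DUSP19, a JNK pathway phosphatase, rose with sh68 alone in the separate tests (1.42 ± 0.16, against -0.11 ± 0.20 with sh72). Among 5 tested tyrosine and serine-threonine phosphatases of MAP kinases, 0 rose and 1 fell on the mean, beside the same shares of all genes. The 1 that fell was PPM1B (-0.099 ± 0.036), which passed as higher with sh68 (0.14 ± 0.041) and lower with sh72 (-0.34 ± 0.042). Its call on the mean was lost under 11 of 18 alternatives.

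The kinases that these brakes act on were measured as well. Of 22 tested genes of the line from adaptors through RAS and RAF to ERK, 5 rose and 8 fell on the mean of both shRNAs. Their median was -0.044. On that mean 24.9% of all genes rose and 27.5% fell, with a median of -0.015. The RAS and RAP exchange factor gene RASGRP2 had the largest called change on that mean (-1.29 ± 0.064), being at 42.2 ± 2.09 CPM in controls, 26.4 ± 2.68 in sh68 cells and 11.4 ± 1.52 in sh72 cells. KSR1, a scaffold for RAF, MEK and ERK, fell (-1.10 ± 0.15), MAP2K1, which encodes the ERK kinase MEK1, rose (0.44 ± 0.034), and the adaptor gene GAB1, at 1.08 ± 0.346 CPM in shSCR, rose with sh68 (1.62 ± 0.21) and had 0.080 ± 0.25 with sh72. Of 12 RAS inactivators and partners of Sprouty and SPRED proteins, 4 rose and 4 fell on the mean. Their median was -0.046, beside the same shares and median of all genes. CBLB, an E3 ubiquitin ligase gene, rose with sh68 from 140.0 ± 2.88 to 262 ± 1.94 CPM and was at 147 ± 2.99 CPM with sh72, a difference of 0.075 ± 0.036 from shSCR on the log2 scale that passed under 5 of 18 alternatives. RASAL2 rose with sh68 (2.64 ± 0.28) from 0.310 ± 0.137 CPM. With sh72 it was at 0.539 ± 0.167 CPM, a log2 fold change of 0.78 that did not pass. That value passed without shSCR replicate 3 or without sh72 replicate 2 (adjusted p = 0.032 and 0.0268). RASAL3 rose on the mean (0.26 ± 0.046), and TESK1, a kinase gene whose product binds Sprouty and SPRED proteins, fell (-0.34 ± 0.043).

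Of 13 genes for p38 and JNK kinases, their activators and the p38 substrate kinases MAPKAPK2 and MAPKAPK3, 1 rose and 9 fell on the mean, the 2 substrate kinases among them, with a median of -0.29 beside -0.015 for all genes. With sh68, 0 rose and 8 fell, where 27.4% of all genes rose and 28.1% fell. With sh72, 1 rose and 8 fell, where 24.7% of all genes rose and 26.3% fell. MAPK8, which encodes JNK1, was at 28.0 ± 1.63, 18.7 ± 0.628 and 21.8 ± 0.459 CPM in shSCR, sh68 and sh72. The p38 genes MAPK13 (-0.57 ± 0.063) and MAPK12 (-0.40 ± 0.048) and the p38 substrate kinase gene MAPKAPK3 (-0.60 ± 0.063) fell on the mean and with each shRNA. Of 7 kinases that ERK or p38 activate, 1 rose and 5 fell on the mean, with a median of -0.18. On that mean 24.9% of all genes rose and 27.5% fell. With sh68, 0 rose and 3 fell, and with sh72, 1 rose and 3 fell, beside the shares for each shRNA given above. With the LSD1 shRNA libraries fitted as 1 group, RPS6KA2, RPS6KA5 and MKNK1 lost their calls on the mean (adjusted p = 0.249, 0.313 and 0.16). RPS6KA2 was at 18.9 ± 2.42 CPM in shSCR and 17.2 ± 0.663 with sh68, which passed only without shSCR replicate 3 (-0.22, adjusted p = 0.0219), and fell to 5.61 ± 0.365 with sh72. RPS6KA5 fell with sh72 (-0.64 ± 0.075), RPS6KA1 fell with both (-0.43 ± 0.046 and -0.21 ± 0.046), and MKNK1 fell with sh68 (-0.26 ± 0.064).

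Transcripts known to rise with ERK activity, other than the members, gave no single direction. Of 20 listed genes, 12 had enough reads to test, and 2 rose and 6 fell on the mean, with a median of -0.32. On that mean 24.9% of all genes rose and 27.5% fell, with a median of -0.015. EGR1, an immediate early transcription factor, fell with each shRNA, from 2.56 ± 0.438 CPM in controls to 0.802 ± 0.183 in sh68 cells and 1.69 ± 0.131 in sh72 cells (-1.67 ± 0.20 and -0.59 ± 0.18, adjusted p = 2.15e-07 and 0.00755). Without shSCR replicate 2 the EGR1 call with sh72 was lost (-0.47, adjusted p = 0.0601). ETV5, an ETS transcription factor, fell more with sh72 (-1.60 ± 0.25) than with sh68 (-0.65 ± 0.22), with a difference of -0.95 ± 0.27 (adjusted p = 0.00417). The ETV5 call with sh68 was lost when shSCR replicate 2, shSCR replicate 3, sh68 replicate 1 or sh68 replicate 3 was left out (adjusted p = 0.0692, 0.0885, 0.0750 and 0.0586). HBEGF, a ligand of the epidermal growth factor receptor, rose from 0.398 ± 0.120 CPM to 1.74 ± 0.488 and 1.10 ± 0.229, and KCNN4, a potassium channel gene, rose from 7.43 ± 0.827 CPM to 13.3 ± 1.55 and 15.3 ± 1.67. Over the 9 lists together, 16 of 82 tested genes rose and 38 fell on the mean of both shRNAs, beside 24.9% and 27.5% of all genes.

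**Figure D4:**
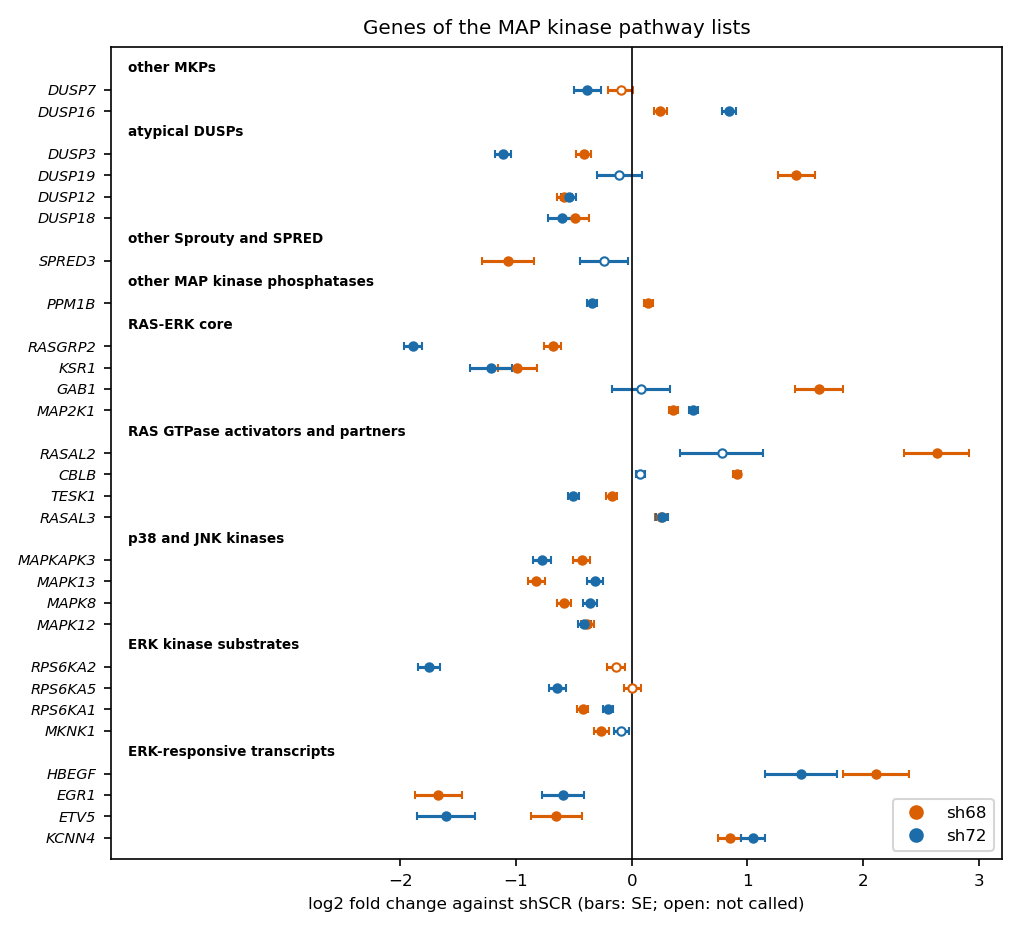
Log2 fold changes with sh68 (orange) and sh72 (blue) against shSCR of the genes named from the 9 pathway lists; bars are SEs and open points did not pass. MAPKAPK3, MAPK13, MAPK8 and MAPK12 lie left of 0 with both shRNAs, while DUSP19, GAB1 and CBLB lie near 0 with sh72 and to the right with sh68.

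The genes most like DUSP5 and DUSP6, the members with a called change of at least 1 on the log2 scale in some comparison, were found by the root mean square difference between log2 CPM profiles over the 9 libraries, each centred on its own mean. DUSP6 lay nearest to ZBTB48 (0.0848), CD84 (0.0894) and MYBL1 (0.0957), whose log2 fold changes were 0.73, 0.69 and 0.68 with sh68 and -0.55, -0.54 and -0.50 with sh72. DUSP5 lay nearest to ACADVL (0.129), IFI35 (0.149) and GRINA (0.150). For scale, the SD of the profile itself was 0.549 for DUSP6 and 0.565 for DUSP5. The likeness describes these 9 libraries, which fall into 3 groups.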

How the data were processed

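The data are 9 polyA RNA-seq libraries. The table the authors deposited holds raw, whole-number counts by gene symbol. The submitters' processing notes name STAR 2.5.2 and featureCounts 1.5.2 beside CASAVA 1.8.2, with hg38 as the build. Which annotation and strand option they used is not given in the sources used here. Sample labels number the LSD1 shRNAs and the table names them, with no key, so the table's names sh68 and sh72 were kept.

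Counts were analysed with edgeR 4.0.16 in R 4.3.3: filterByExpr by group (minimum count 10, minimum total 15), TMM scaling, and 1 quasi-likelihood fit of all 9 libraries with a term per group (common biological coefficient of variation 0.0394). Each shRNA, the mean of both and the difference between them were tested, with Benjamini-Hochberg adjustment over 15725 genes. SE is the log2 fold change over the square root of F. The code was tested on simulated data. Members other than SPRED2 had at most 846 reads in a library (SPRY1), and for most of them counting error is as large as that coefficient of variation or larger. Alternatives used limma 3.58.1 and DESeq2 1.42.0, other scalings and filters, only the groups compared, a robust fit, a replicate block, and each library left out.

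All members were named. From each of 9 pathway lists up to 4 genes called on the mean of both shRNAs with the largest change were named, and every tested gene of the lists of other MAP kinase phosphatases of this family and of other Sprouty and SPRED genes. Members and lists were chosen with earlier results of these data known. Positions and exon lengths are from GENCODE 29 (GRCh38, the same build as hg38) and promoters from RefSeq. For log2 CPM profiles a prior count of 2 was added.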

Additional observations from a re-analysis of the deposited data

Results flagged for a closer look

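The shRNAs target the same gene, and 6 of the 8 tested members differed between them by the test of sh72 minus sh68 itself (edgeR, adjusted p from 7.83e-11 to 0.00306), where 27.2% of all genes were higher with sh72 and 29.0% lower. On the log2 scale the differences were DUSP2 (0.76), DUSP5 (0.52) and SPRED1 (0.77), higher with sh72, and DUSP6 (-1.26), SPRY1 (-0.55) and SPRED2 (-0.39), lower with sh72. KDM1A RNA itself was lower with sh72 by 0.23 ± 0.061 on this scale, and the part of that difference, or of targets other than KDM1A, in these values was not tested.

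Among 28 named genes of the pathway lists, 22 differed in the same test. Most of these were named for the size of their change on the mean of both shRNAs; over all 82 tested genes of the lists, 24 were higher with sh72 and 27 lower, beside the shares of all genes above. Higher with sh72 than with sh68 were DUSP16 (0.59), SPRED3 (0.83), MAP2K1 (0.17), MAPK13 (0.51), MAPK8 (0.23), RPS6KA1 (0.22), MKNK1 (0.17) and EGR1 (1.08). Lower with sh72 were DUSP7 (-0.29), DUSP3 (-0.70), DUSP19 (-1.53), PPM1B (-0.49), RASGRP2 (-1.21), GAB1 (-1.54), RASAL2 (-1.86), CBLB (-0.83), TESK1 (-0.33), MAPKAPK3 (-0.34), RPS6KA2 (-1.62), RPS6KA5 (-0.65), HBEGF (-0.65) and ETV5 (-0.95). The differences of DUSP7, HBEGF and MKNK1 lost their calls under 4, 4 and 3 of 18 alternatives. Groups of 3 libraries are too small for a test of single outlying libraries.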

How the results depend on the processing

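The counts of members called higher or lower were within 1.5 times of those reported under all but these alternatives. With library size alone as the scaling, 1 member, SPRY1, passed as higher with sh72, where 0 had. With the 6 LSD1 shRNA libraries as 1 group, chosen after seeing the data, which counts the gap between sh68 and sh72 as replicate spread, 0 members were higher and 2 lower (against 2 and 5), 8 genes of the 9 pathway lists were higher and 19 lower (against 16 and 38), and 1857 of all genes were higher and 1724 lower (against 3908 and 4318). There SPRY1 had 0.45 (adjusted p = 0.0821) and DUSP1 -0.44 (adjusted p = 0.0682). No called log2 fold change of a tested member or named list gene changed sign in the alternatives run, for either shRNA, their mean or their difference.

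Leaving out each library in turn gave 3 to 4 members lower with sh68, 3 to 4 lower with sh72, and 3 to 4 lower for sh72 minus sh68. Among all genes tested the same fits gave 3808 to 4675 lower with sh68 and 3545 to 4058 lower with sh72. For sh72 minus sh68 they gave 4147 to 4531 lower. The replicate numbers of the columns showed no strong pairing of libraries across groups. Residuals of same-numbered libraries had Pearson r from -0.0358 to 0.0724 across genes, and those of different numbers from -0.0817 to 0.0555. A weak pairing, or one that touches few genes, would not be seen this way. With the replicate number as a block, 2 members were higher and 5 lower on the mean of both shRNAs, as without it, and no call of a member changed. Without the block, 24.9% of all genes were higher and 27.5% lower on that mean. Counts limit what can be said of DUSP4, SPRY3 and SPRY4, and widen the errors of DUSP1, with 56 to 97 reads a library. The shRNAs share 1 set of controls, so a fault in those would move both comparisons.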
